A study of Saccharomyces cerevisiae with 6 samples.

Results

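The 9 genes described here encode the superoxide dismutases, catalases and haem or thiol peroxidases of Saccharomyces cerevisiae, together with the copper chaperone of a dismutase. They are SOD1, SOD2, CCS1, CTT1, CTA1, CCP1, GPX1, GPX2 and HYR1, chosen by gene symbol in the annotation of the array, where each had 1 feature among 5365 named genes. Cells of strain S288C were grown in YPD, a rich glucose medium, at 25 °C to an optical density of 1 and exposed to 3.3 mM tetrachloroethylene, a chlorinated solvent, for 2 h. On each of 3 arrays, from independent biological samples, Cy5-labelled cDNA of the exposed cells was set against Cy3-labelled cDNA of cells taken before the addition, and every array was read by a scan at high and a scan at low power. No untreated culture was sampled after 2 h and the dyes were not exchanged, so the solvent, the elapsed time and a dye effect cannot be told apart in any value below.

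Superoxide dismutases turn superoxide into hydrogen peroxide and oxygen. Catalases and peroxidases then remove hydrogen peroxide or organic peroxides, the catalases without a reducing partner and the peroxidases at the expense of cytochrome c, glutathione or thioredoxin. In yeast the enzymes are divided between the cytosol, the mitochondria and the peroxisomes, and their genes answer to different regulators, among them Yap1 and Skn7 for oxidants and Msn2 and Msn4 for stress in general.

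Values are log2 ratios, read as exposed cells over cells before the addition, averaged over the scans of an array. Base and direction are not stated in the labels and were taken from the size of the values and the dyes. Errors after ± are SD over 3 hybridisations. Each gene was tested against 0 with limma across 5349 genes with Benjamini-Hochberg adjustment, and "rose" or "fell" is used for an adjusted p under 0.05. Since ratios hold no level, it cannot be said which of these genes was the more abundant.

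Of the 9 genes, SOD1 and HYR1 rose, GPX2 fell and 6 did not pass. Over all genes tested 21.0% passed, 9.14% higher and 11.9% lower. CTT1, the cytosolic catalase, had a mean log2 ratio of 0.03 ± 0.20. The median of the 9 mean ratios was -0.17, and that of all genes tested was -0.02. For 6 of the 9 genes all 3 hybridisations had 1 sign, as they did for 58.8% of all genes.

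**Figure D1:**
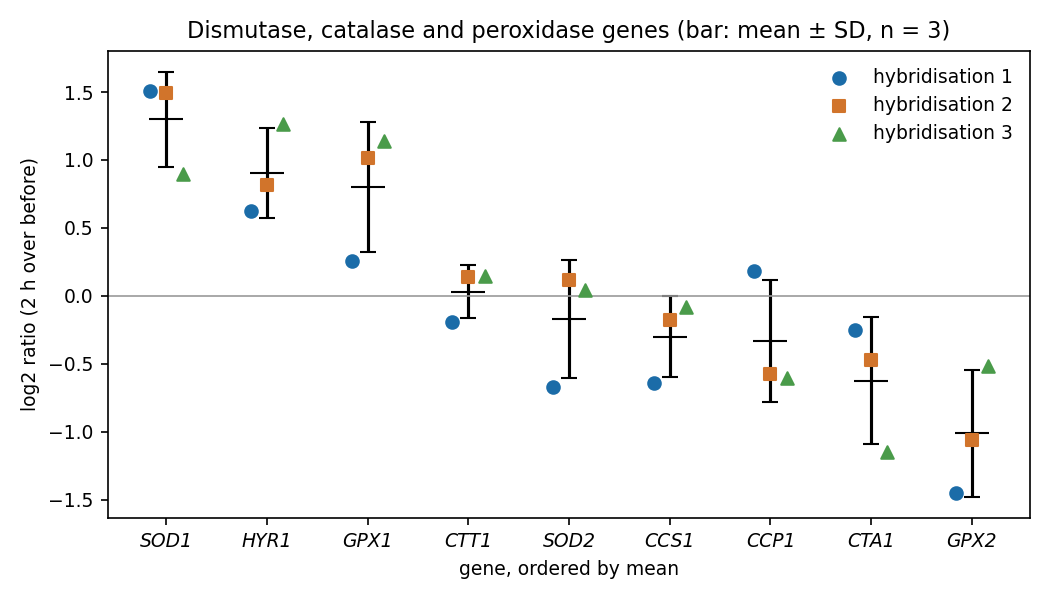
Log2 ratio (vertical axis) of each of the 9 genes in hybridisations 1, 2 and 3 (circles, squares and triangles), with the mean and SD over the 3 hybridisations as bars. SOD1, HYR1 and GPX1 lie above 0 and GPX2 and CTA1 below 0 in every hybridisation, while CTT1 stays between -0.19 and 0.15.

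SOD1 encodes the copper and zinc superoxide dismutase, found mainly in the cytosol. Its log2 ratio was 1.51 in hybridisation 1, 1.49 in hybridisation 2 and 0.90 in hybridisation 3, so that it was high on every array and lowest on the last. The mean was 1.30 ± 0.35 (n = 3), or 2.46-fold higher (limma, adjusted p = 0.0117), above 97.3% of the genes tested. Only the low power scan gave a value in hybridisations 2 and 3. Without hybridisation 3 the mean was 1.50 and the call ended (adjusted p = 0.0761).

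SOD2 encodes the manganese dismutase of the mitochondrial matrix. It had -0.67, 0.12 and 0.05 in hybridisations 1, 2 and 3, below 0 on the first array alone, and a mean of -0.17 ± 0.44 (adjusted p = 0.611). CCS1, the chaperone that inserts copper into the Sod1 protein, had -0.64, -0.18 and -0.08, negative on each array and lowest on the first. Its mean was -0.30 ± 0.30 (adjusted p = 0.309). The ranges of SOD2 and CCS1 overlapped each other, and neither overlapped that of SOD1.

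The difference itself was tested by fitting limma to each gene's ratio minus that of SOD1 on the same array, over 5348 genes, of which 85.3% passed (82.1% with the second kind of error below). In that fit limma gave every gene the same error, so its adjusted p-values are very small, and a second adjusted p from the combined errors of both genes in the fit against 0 is given with them. SOD2 lay below SOD1 by a log2 difference of -2.18, -1.37 and -0.85 on the 3 arrays, with a mean of -1.47 (95% interval -2.14 to -0.79, limma adjusted p = 5.4e-05, and 0.0047 with the errors of both genes). CCS1 lay below SOD1 by -1.60 on average (95% interval -2.27 to -0.92, adjusted p = 1.2e-05 and 0.00323). By both kinds of error the ratios of both dismutase genes differed, as did those of the dismutase and its chaperone. Neither error is the spread of the difference itself over the arrays, which had an SD of 0.67 for SOD2 and 0.59 for CCS1 (n = 3). CTT1, CTA1, CCP1 and GPX2 differed from SOD1 too. The pair of CTT1 and SOD1 is tested again below in the fit from CTT1, with another adjustment and, by the errors of both genes, another outcome. HYR1 and GPX1 did not pass against SOD1, with a log2 difference of -0.40 for HYR1 (95% interval -1.07 to 0.28) and -0.50 for GPX1 (-1.17 to 0.18). Without hybridisation 3 both passed, HYR1 at -0.78 (adjusted p = 0.035) and GPX1 at -0.86 (adjusted p = 0.0289).

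GPX1, GPX2 and HYR1 are the yeast genes related to the glutathione peroxidases of animals, and their proteins reduce peroxides, lipid peroxides included. HYR1, also named GPX3, encodes the peroxidase that senses hydrogen peroxide and passes the oxidation on to Yap1. Its log2 ratio was 0.62, 0.82 and 1.27 in hybridisations 1, 2 and 3, above 0 throughout. The mean of 0.90 ± 0.33 was a 1.87-fold rise (limma, adjusted p = 0.026). It ended as a call without hybridisation 2 (0.95, adjusted p = 0.0609), without hybridisation 3 (0.72, adjusted p = 0.189) and against a minimum fold of 1.2 (adjusted p = 0.0684).

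GPX1, which is known to be induced when glucose runs out, had 0.26, 1.01 and 1.14. Hybridisation 1 was far below the others, and the mean was 0.80 ± 0.48, or 1.75-fold. Its adjusted p of 0.0502 missed the threshold by a margin that 7 of the alternative settings crossed, among them centring of arrays on their medians (0.84, adjusted p = 0.0427) and omission of hybridisation 1 (1.08, adjusted p = 8.7e-08). That last p-value follows the size of the mean and not the spread of GPX1, as described below for that setting.

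GPX2 encodes the peroxidase of this family that Yap1 and Skn7 induce under oxidants. It was the lowest of the 9 genes on average, with -1.45 in hybridisation 1, -1.06 in hybridisation 2 and -0.52 in hybridisation 3. All 3 arrays lay below 0, and the last lay closest to it. The mean of -1.01 ± 0.47 was a 2.01-fold fall (limma, adjusted p = 0.0263). In hybridisations 2 and 3 it was read in the low power scan alone. The call ended without hybridisation 2 (-0.98, adjusted p = 0.0532), without hybridisation 3 (-1.25, adjusted p = 0.0853) and against a minimum fold of 1.2 (adjusted p = 0.0633).

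The 3 related peroxidase genes did not move together. On the arrays in order, HYR1 lay above GPX2 by log2 differences of 2.07, 1.88 and 1.78, and GPX1 above GPX2 by 1.70, 2.08 and 1.66. The mean difference was 1.91 for HYR1 (95% interval 1.19 to 2.63) and 1.81 for GPX1 (1.09 to 2.54). As in the fit against SOD1, limma gave every gene the same error here. By limma on the differences from GPX2, where 64.1% of genes passed (59.4% with the errors of both genes), the adjusted p was 3e-06 for HYR1 and 9.8e-06 for GPX1, and 0.00905 and 0.00993 with the errors of both genes. HYR1 and GPX1 lay within 0.37 of each other on every array and changed order between them. Array features of cDNA may share signal between related genes, and how far they do so here was not tested.

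CTT1 encodes catalase T, the cytosolic catalase, whose gene is a classic target of Msn2 and Msn4 under heat, osmotic and other stress. Its log2 ratio was -0.19 in hybridisation 1, 0.14 in hybridisation 2 and 0.15 in hybridisation 3. The arrays lay on both sides of 0 and within 0.34 of each other. The mean of 0.03 ± 0.20 had a 95% interval of -0.41 to 0.47 (limma, adjusted p = 0.919), which leaves room for a change of either sign within those bounds. The SD of CTT1 exceeded that of 23.5% of the genes tested. The mean turned to -0.02 without hybridisation 2 and to -0.03 without hybridisation 3. Its largest shift came on centring within blocks of feature IDs, to 0.28 (limma, adjusted p = 0.254).

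CTA1 encodes catalase A of the peroxisome and the mitochondrion, known for its induction on fatty acids. It had -0.25, -0.47 and -1.15, below 0 on each array and lowest on the last, where the scans themselves differed by 0.81. The mean was -0.62 ± 0.47, or 1.54-fold lower, and it did not pass (adjusted p = 0.0938). CCP1, the cytochrome c peroxidase of the mitochondrial intermembrane space, had 0.19, -0.58 and -0.60. Its sign on the first array was opposite to that on the others, and the mean of -0.33 ± 0.45 did not pass (adjusted p = 0.317). Without hybridisation 1 both passed by limma, CTA1 at -0.81 (adjusted p = 7.7e-05) and CCP1 at -0.59 (adjusted p = 0.00494). CTA1 had the smaller p-value there although its remaining arrays lay much further apart than those of CCP1, so these p-values do not reflect the spread of each gene.

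Of the 3 arrays, hybridisation 1 gave the lowest value for SOD2, CCS1, CTT1, GPX1, GPX2 and HYR1 and the highest for SOD1, CTA1 and CCP1. Without it 6 of the 9 genes passed, 3 higher and 3 lower. In that fit the adjusted p of the 9 genes followed the size of the mean alone, whatever their spread. These calls therefore do not measure how well hybridisations 2 and 3 agreed for a gene. Without hybridisation 2 SOD1 alone passed, and without hybridisation 3 0 did by limma, although SOD1, HYR1 and GPX2 had an unadjusted p under 0.05. Over all genes the count went from 1125 to 2351 without hybridisation 1 and to 1 without hybridisation 3, so the number of calls among the 9 moved with that of the whole table.

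The scans bear on single genes. All 6 scans gave a value for SOD2, CCP1, GPX1 and HYR1, while the other 5 genes lacked 1 or 2. For GPX1 the low power scan read 1.30 and the high power scan 0.73 in hybridisation 2, and 1.34 against 0.94 in hybridisation 3. For SOD1 the scans of hybridisation 1 gave 1.71 at low and 1.30 at high power. The median absolute difference between scans over all genes was 0.17, 0.35 and 0.20 in hybridisations 1, 2 and 3. All scans of a gene had the same sign, but for CCP1, whose scans of hybridisation 1 were above 0 and whose others were below, and SOD2 and CTT1, whose scans of hybridisation 1 were below 0 and whose others were above.

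**Figure D2:**
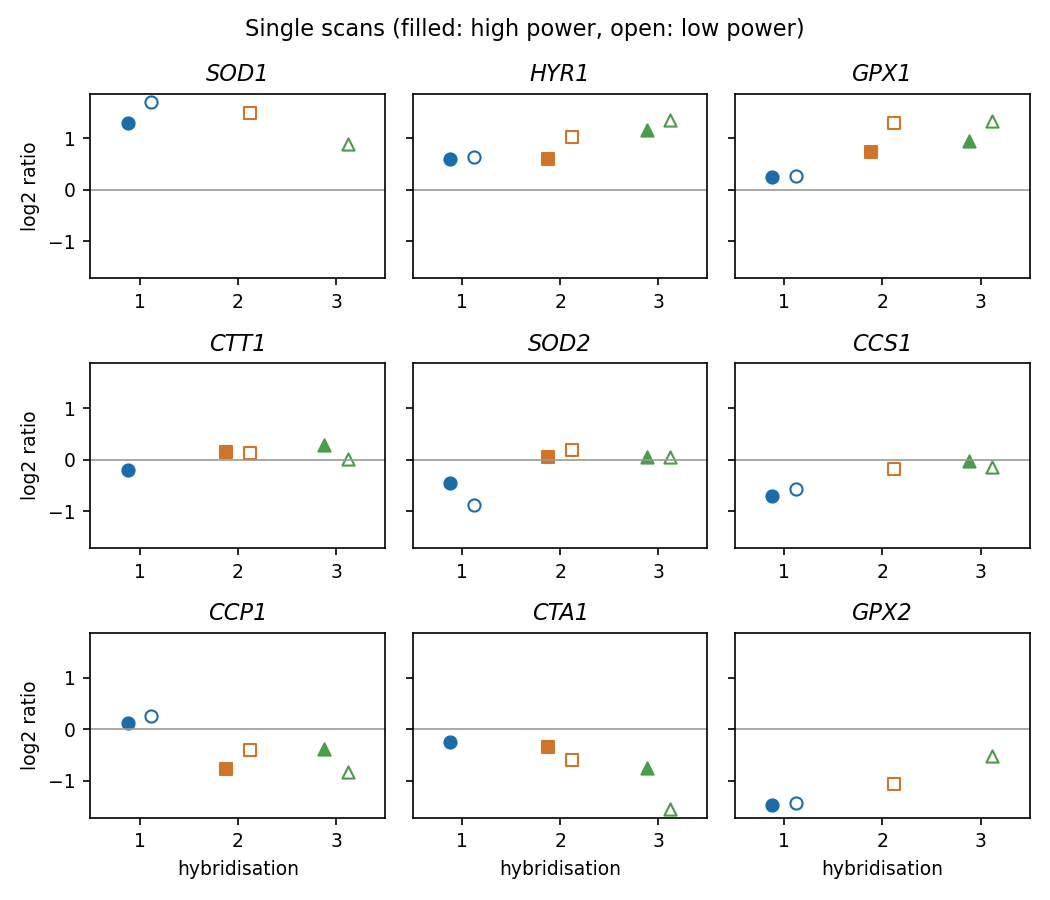
Log2 ratio (vertical axis) of each gene in each single scan, by hybridisation (horizontal axis), with filled marks for high power and open marks for low power. SOD1 and GPX2 have no high power value in hybridisations 2 and 3, CTT1 and CTA1 have no low power value in hybridisation 1, and the widest gap is that of CTA1 in hybridisation 3.

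CTT1 was set against the other 8 genes on the same arrays. SOD1 lay above it by log2 differences of 1.70, 1.35 and 0.75 in hybridisations 1, 2 and 3, HYR1 by 0.82, 0.68 and 1.12, and GPX1 by 0.45, 0.87 and 0.99. GPX2 lay below it by -1.25, -1.20 and -0.66. The difference kept its sign over the 3 arrays for 7 of the 8 genes, CCP1 being the exception, with 3 genes above CTT1 throughout and 4 below it. Of all other genes tested 25.1% lay above CTT1 on all 3 arrays and 33.0% below it. The ranges of SOD1, HYR1, GPX1 and GPX2 did not overlap that of CTT1.

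By limma on the differences from CTT1, in which 19.4% of 5348 genes passed, the 4 genes differed from it. The mean difference was 1.27 for SOD1 (95% interval 0.70 to 1.84, adjusted p = 0.0213) and 0.87 for HYR1 (0.42 to 1.32, adjusted p = 0.0283). It was 0.77 for GPX1 (0.30 to 1.24, adjusted p = 0.0428) and -1.04 for GPX2 (-1.53 to -0.55, adjusted p = 0.0232). This fit takes the spread of CTT1, narrow on these 3 arrays, into every difference. With the moderated errors of both genes 0.841% of genes passed and 0 of the 8 did, with adjusted p-values of 0.0652 for SOD1, 0.0926 for GPX2, 0.117 for HYR1 and 0.164 for GPX1. Unadjusted, these p-values were 0.00278, 0.00998, 0.0165 and 0.0358. For SOD1 and GPX2 these are the same differences, with the same unadjusted p, as in the fits against those genes. There the adjusted p of CTT1 with the errors of both genes was 0.00568 against SOD1 and 0.0242 against GPX2. Whether CTT1 passed against SOD1 or GPX2 by that error thus depends on the set of differences adjusted over. Without hybridisation 2 or hybridisation 3 the count was also 0 of 8 by limma, with 3 at an unadjusted p under 0.05 in each case (SOD1, HYR1 and GPX2). Without hybridisation 1 it was 6, in a fit where the adjusted p again followed the size of the mean difference alone. After centring within blocks of feature IDs the count was 6 as well, with CCS1 (-0.75) and CCP1 (-0.78) passing below CTT1. The difference of SOD1 was then 0.85.

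CTA1, the other catalase, lay below CTT1 by -0.05, -0.61 and -1.30, a mean of -0.65 that did not pass (95% interval -1.31 to 0.00126, adjusted p = 0.136). SOD2 (-0.20, 95% interval -0.65 to 0.26), CCS1 (-0.33, -0.75 to 0.09) and CCP1 (-0.36, -1.03 to 0.31) did not pass either. In the order of means from SOD1 through HYR1, GPX1, CTT1, SOD2, CCS1, CCP1 and CTA1 to GPX2, neighbours overlapped in their ranges at each step other than that from GPX1 to CTT1, where GPX1 was the higher on all 3 arrays and the ranges were apart.

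**Figure D3:**
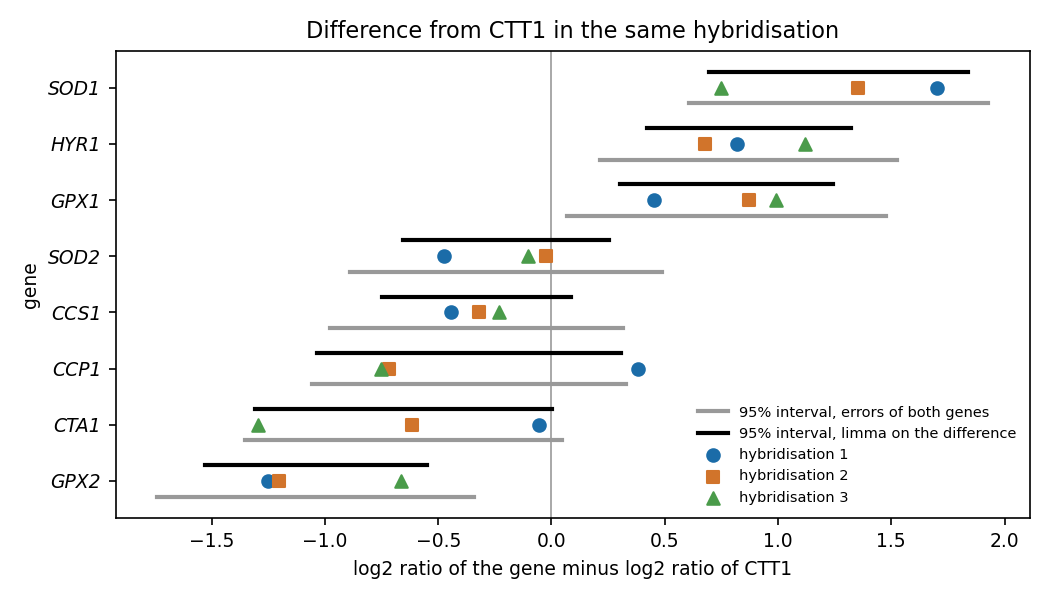
Log2 ratio of each gene minus that of CTT1 on the same array (horizontal axis), with 1 mark per hybridisation, the 95% interval by limma on the difference in black and that from the errors of both genes in grey. SOD1, HYR1 and GPX1 lie to the right of 0 and GPX2, CTA1, CCS1 and SOD2 to the left on all 3 arrays, and the grey intervals are wider for every gene.

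Among genes that Msn2 and Msn4 induce, CTT1 was next to the lowest. Of 28 such genes tested, 19 rose and 0 fell, where 9.14% and 11.9% of all genes did. The median of their mean log2 ratios was 1.43, against -0.02 for all genes. HSP12, which encodes a membrane-associated stress protein, had 3.75, 3.94 and 5.04 on the arrays in order, and NQM1, a transaldolase relative, had 2.30, 3.25 and 3.32. HSP26, a small heat shock protein (2.91 ± 0.52), and TMA10 (2.87 ± 0.70) were next. The 5 lowest were GND2 of the pentose phosphate pathway (-0.31 ± 0.14), CTT1, the glycogen synthase gene GSY2 (0.20 ± 0.59), the glycerol synthesis gene GPD1 (0.22 ± 0.17) and the trehalose synthesis gene TPS1 (0.40 ± 0.29), and none of these passed. The ratio exceeded that of CTT1 on all 3 arrays for 22 of the 27 others, against 25.1% of all genes. The list was chosen with earlier results of these data known, so its contrast with all genes is a description only. By limma on the difference 18 of the 27 lay above CTT1 and 0 below, where 389 of all 5348 genes lay above it. With the errors of both genes 6 did so, HSP12, HSP26, TMA10 and NQM1 among them, where 27 of all 5348 genes did.

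Thioredoxins and peroxiredoxins remove peroxides beside the catalases. Of 13 genes in that list, which also held sulfoxide reductases, 5 rose and 0 fell, beside 9.14% and 11.9% of all genes. The list had a median of 0.72. The mitochondrial peroxiredoxin gene PRX1 had 1.22, 1.43 and 1.75 on the arrays in order, and TRX1, a cytosolic thioredoxin, had 1.08, 1.81 and 1.18. DOT5, a nuclear peroxiredoxin (0.94 ± 0.41), the mitochondrial thioredoxin TRX3 (0.79 ± 0.38) and the methionine sulfoxide reductase MXR2 (0.72 ± 0.28) were the others. On all 3 arrays 9 of the 13 lay above CTT1, beside the same 25.1% of all genes. By limma on the difference 3 passed above it, where 389 of all 5348 genes did, and 0 did with the errors of both genes.

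Of 13 genes of glutathione, glutaredoxins and transferases, 4 rose and 1 fell, beside 9.14% and 11.9% of all genes. Their median was 0.59. The glutathione transferase ECM4 had 1.80, 2.22 and 2.60, GTO3 averaged 1.93 ± 0.62 and GTT1 1.28 ± 0.37, and the glutaredoxin GRX1 had 1.28 ± 0.61. GRX4, a glutaredoxin that takes part in iron sensing, fell (-1.06 ± 0.18). Of these, ECM4 alone differed from CTT1 with the errors of both genes (2.17, adjusted p = 0.0453).

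SOD1, GPX2 and CCP1 also belong to the 17 tested genes of oxidative stress induced through Yap1, of which SOD1 and ARI1, an aldehyde reductase (1.65 ± 0.40), rose, GPX2 fell and 14 did not pass. The list's median was 0.09. As 21.0% of all genes passed, 9.14% higher and 11.9% lower, the share called in this list and the next is near that of all genes. Among 11 genes tested in a list of regulators of the response, ADR1, an activator of peroxisomal and CTA1 transcription (0.93 ± 0.28), rose. SKN7 (-0.71 ± 0.13), the partner of Yap1 in peroxide responses, fell. The median there was 0.06. HAP1 was meant for this list, but its name was matched as a synonym to ELP4, a different gene (-0.92 ± 0.78), which did not pass. HAP1 itself was not among the genes tested, and every count and median of the list includes ELP4.

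The metal supply of the dismutases held 15 genes. Of these 5 rose and 2 fell, where 9.14% and 11.9% of all genes did, and the median was 0.18. The copper chaperone ATX1, which can stand in for Sod1 when in excess, had 1.23, 1.85 and 1.68 on the arrays in order. The copper pump CCC2 (1.42 ± 0.24), the metallothionein CRS5 (1.14 ± 0.07), the cytochrome oxidase copper chaperone COX17 (1.09 ± 0.13) and the copper transporter CTR3 (1.08 ± 0.09) also rose. The metal reductase FRE1 (-1.15 ± 0.82) fell, as did SMF2 (-0.65 ± 0.16), a manganese transporter needed for active Sod2. CCS1, in the same list, did not pass, and CTR1, the main copper transporter, had 0.01 ± 0.19.

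Catalases and the cytochrome c peroxidase carry haem. Among 8 genes of haem synthesis the median was -0.40, and 1 fell while 0 rose. With 9.14% of all genes higher and 11.9% lower, the counts of the lists in this paragraph are near or below those shares. HEM15, the ferrochelatase that puts iron into haem, had -0.86, -0.81 and -0.85, a mean of -0.84 ± 0.03 (limma, adjusted p = 0.0207). Of 12 haem and oxygen regulated genes, CYC7, a cytochrome c isoform (1.68 ± 0.72), rose and YHB1, the flavohaemoglobin (-1.29 ± 0.88), fell, with a median of 0.20. Of 15 genes of the peroxisome and fatty acid oxidation, CTA1 among them, the carnitine acetyltransferase CAT2 (1.04 ± 0.25) rose and 0 fell, with a median of 0.25. CTA1 had the lowest mean ratio of that list.

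Peroxidases that use glutathione or thioredoxin draw on NADPH. Of 15 genes in a list named for its supply, NQM1, SOL4 (1.52 ± 0.74) and the NADH kinase YEF1 (1.13 ± 0.61) rose. The transketolase TKL2 (-1.05 ± 0.29) and GND1 (-0.75 ± 0.05), a 6-phosphogluconate dehydrogenase, fell, and the median was 0.09. Not every gene of that list makes NADPH, and NQM1 and TKL2 do not. Mating genes, read as markers of cell state, had 8 tested members, of which MF(ALPHA)2, STE3 and SAG1, all genes specific to alpha cells, fell and 0 rose. The list's median was -0.43, with 0.07 in hybridisation 1 and -0.66 and -0.71 in hybridisations 2 and 3. Of the genes specific to a cells, MFA1 (0.30 ± 0.69), MFA2 (1.55 ± 2.40), STE2 (0.33 ± 0.54) and AGA2 (-0.13 ± 0.55) did not pass. In hybridisation 2 they had -0.15, -0.22, -0.28 and -0.58, in that order. MFA2 had 4.29 in hybridisation 1 and 0.59 in hybridisation 3. FIG1 (-0.73 ± 0.38) did not pass either. Of 11 meiosis and sporulation genes SPS4 (-0.95 ± 0.38) fell and 0 rose, with a median of 0.13. For every list of this paragraph the shares over all genes were again 9.14% higher and 11.9% lower. SPO11, which makes the breaks of meiotic recombination, had 3.86, 0.57 and 0.66 and did not pass (1.70 ± 1.87, adjusted p = 0.0899). The part of either in the ratios of the 9 genes was not tested.

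The calls on these other genes had limits of their own. Without hybridisation 3 HSP12 was the sole gene of the table to pass, and the other 29 genes named from the lists by rule as past the threshold had adjusted p-values of 0.0659 to 0.227 by limma. Without hybridisation 2 CAT2 (adjusted p = 0.0718), DOT5 (0.148), HEM15 (0.0903) and SKN7 (0.131) lost their calls, and without hybridisation 1 GSY2 (0.48, adjusted p = 0.0254) and TPS1 (0.55, adjusted p = 0.00927) gained one. As for the 9 genes, the adjusted p without hybridisation 1 followed the size of the mean and not the spread. Centring within blocks of feature IDs ended 9 calls (DOT5, TRX3, SKN7, FRE1, HEM15, YHB1, YEF1, SAG1 and SPS4), with adjusted p-values of 0.0522 to 0.0963, and gave TPS1 one (0.65, adjusted p = 0.0479). Testing against a minimum fold of 1.2 ended those 9 calls and that of ADR1 (adjusted p = 0.0566), with adjusted p-values of 0.0523 to 0.120.

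**Figure D4:**
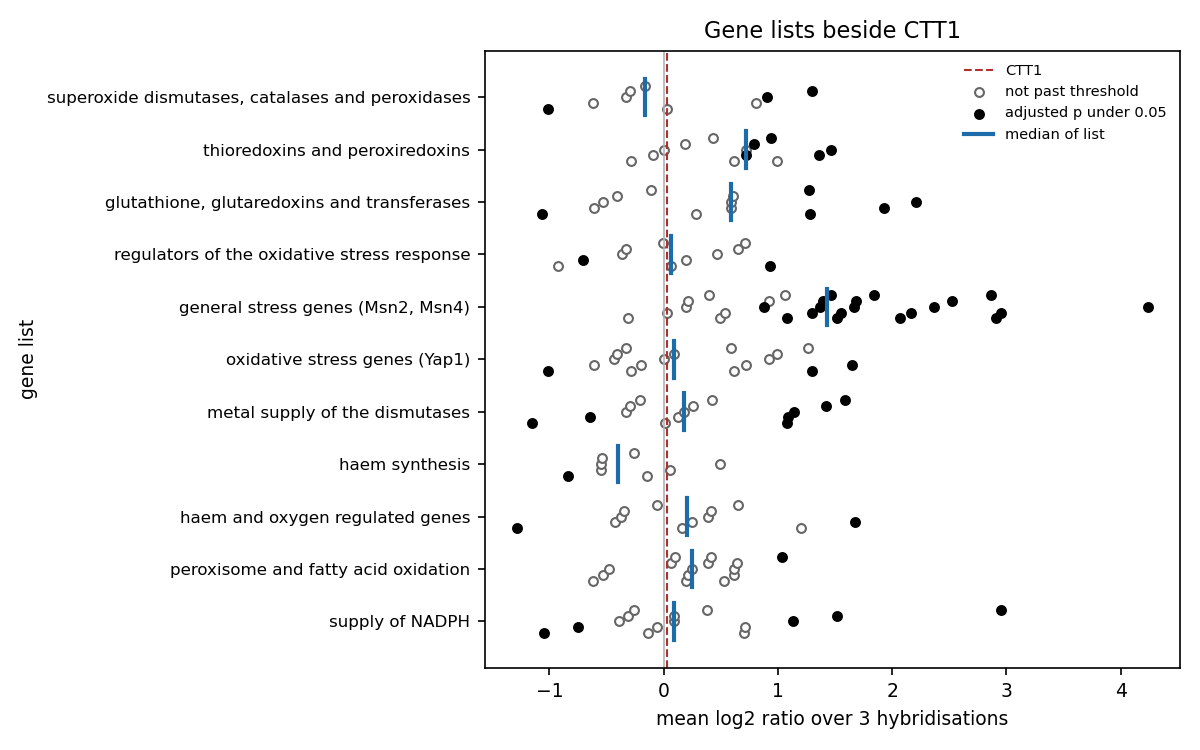
Mean log2 ratio over 3 hybridisations (horizontal axis) of every tested gene of 11 lists (rows), filled where the adjusted p was under 0.05, with the median of each list in blue and CTT1 as the dashed line. The general stress genes have the highest median, 1.43, and CTT1 and GND2 lie at their lower end. The row of regulators holds ELP4 in the place meant for HAP1.

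The genes nearest to CTT1 by root mean square distance over the 3 arrays were UBP2 (0.02 on the log2 scale), CTR1 (0.03) and FRE2 (0.03). For SOD1 they were SDD1 (0.07), MRPL33 (0.08) and STP2 (0.09). For HYR1 they were TPS2 (0.02), FRE5 (0.09) and PMP3 (0.10), and for GPX2 HPM1 (0.07), HHF2 (0.07) and KTR7 (0.09). With 3 values per gene and 5349 genes such closeness is a description only.

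On the chromosome, by gene order in assembly R64, HYR1 lies between GTT1, which rose (1.28 ± 0.37), and IRC24 (0.49 ± 0.09), which did not pass. GPX2 lies between ALG7, which fell (-0.77 ± 0.35), and ISW1 (-0.58 ± 0.34, not past the threshold). NNF2, beside CTT1, fell (-0.72 ± 0.23), while PDC6 on its other side had 0.56 ± 0.62 and did not pass. SOD1 lies between URA8 (0.05 ± 0.09) and ADO1 (-0.44 ± 0.59), neither of which passed. No neighbour of SOD2, CCS1, CTA1, CCP1 or GPX1 with a value passed. GTT1, ALG7 and NNF2 were thus the only neighbours called, where 21.0% of all genes were. Whether neighbours moved together was not tested.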

How the data were processed

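The deposited values, 1 column for each of 6 scans, were read as log2 ratios of Cy5 over Cy3. Per the labels, the authors normalised them by LOWESS over spots with flag 0. How the arrays were scanned and background was corrected is not given in the sources used here. No spot intensities were used, so dim or saturated spots could not be told apart and the number of arrays limits the precision. The highest value, 7.74, would be too wide for a log10 ratio.

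Of 6912 features 5513 had 1 gene name, 0 several and 1399 none, and 5508 were matched to a gene table of assembly R64. Scans were averaged per hybridisation, with 1 scan used where the other was missing, then features per gene. The 5349 genes with a value in all 3 hybridisations were tested with limma 3.58.1 in R 4.3.3 (lmFit, eBayes, two-sided), tested beforehand on simulated data. Differences from CTT1, GPX2 and SOD1 were fitted likewise, and again with moderated standard errors of both genes taken as independent, a setting chosen after seeing the data.

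The members and gene lists were chosen with earlier results of these data known, and p-values were adjusted over all genes. Named were the 9 members, up to 4 called genes per list of 1 sign on all arrays with the greatest mean absolute ratio, the 5 lowest general stress genes, and the 3 genes nearest to CTT1 and to each member past the threshold. MXR2, GRX4, COX17, CTR3, CTR1, SMF2, GND1, MFA1, MFA2, STE2, AGA2, FIG1, SPO11 and the chromosomal neighbours were picked with their values in view. ELP4 is named because it entered the list of regulators through a synonym match to HAP1. The alternatives were other uses of the scans, other normalisations, other tests and omission of each hybridisation.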

Additional observations from a re-analysis of the deposited data

How the results depend on the processing

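Results were recomputed under up to 16 planned settings. Number of members past the threshold (3): 1 with the high power scan alone, with genes read in all 6 scans, with scans within 0.5, on dropping the low power scan of hybridisation 2 and with a minimum fold of 1.2, and 0 to 6 on leaving out a hybridisation. Members different from CTT1 (4): 1 with the high power scan alone, on dropping the low power scan of hybridisation 2 and with a minimum fold of 1.2, 0 with the errors of both genes, and 0 to 6 on leaving out a hybridisation. Members different from GPX2 (5): 3 with the low power scan alone and 3 to 8 on leaving out a hybridisation. Members different from SOD1 numbered 6, and 6 to 8 on leaving out a hybridisation. Over all genes the count of 1125 became 544 with genes read in all 6 scans, 325 with scans within 0.5, 1741 with hybridisation as a random block, 514 with a minimum fold of 1.2 and 1 to 2351 on leaving out a hybridisation. Differences from CTT1 (1039 genes) numbered 1761 with the random block, 468 with a minimum fold, 45 with the errors of both genes and 1 to 2467 on leaving out a hybridisation. Those from GPX2 (3430) were 2067 with the low power scan alone and 1118 to 3892, and those from SOD1 (4561) were 2744 and 3117 to 4687. Fewer genes are measured when scans are left out. SOD1, GPX2 and CCS1 had no value with the high power scan alone, with genes read in all 6 scans, with scans within 0.5 or on dropping the low power scan of hybridisation 2. CTT1 and CTA1 had none with the low power scan alone, with genes read in all 6 scans or with scans within 0.5, and GPX1 had none with scans within 0.5. Differences lack every setting in which either gene has no value, and with SOD1 or GPX2 as reference the random block could not be fitted.

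On leaving out a hybridisation the mean turned sign for SOD2 (-0.31 to 0.083), CTT1 (-0.026 to 0.14), CTA1 minus GPX2 (-0.021 to 0.89) and GSY2 (-0.11 to 0.48), and after centring of ID blocks for HYR1 minus SOD1 (0.064). The cause was not tested. The call changed in 16 of 125 recomputed ratios of members and in 35 of 294 differences.

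List medians moved as follows. With the high power scan alone the thioredoxin list had 0.42, glutathione 0.39, Yap1 -0.031 and metal supply 0.37. With the low power scan alone glutathione had 0.091 and Yap1 0.59. With genes read in all 6 scans the members had 0.32, thioredoxins 0.45, glutathione -0.11, Yap1 -0.12, metal supply 0.34 and haem synthesis -0.54. With scans within 0.5 glutathione had -0.53, regulators -0.32, Yap1 -0.12, metal supply 0.34 and haem and oxygen -0.11. On dropping that low power scan Yap1 had -0.14 and metal supply 0.42. After centring of ID blocks the members had -0.34, Yap1 0.31, metal supply 0.30 and haem synthesis -0.29. On leaving out a hybridisation the medians ran from -0.21 to 0.083 for the members, 0.40 to 0.71 for glutathione, 0.055 to 0.23 for Yap1, -0.41 to -0.26 for haem synthesis, -0.17 to 0.37 for haem and oxygen, 0.23 to 0.45 for the peroxisome and -0.26 to 0.19 for NADPH. Counts of called genes over all settings ran from 1 to 22 for general stress, 0 to 9 for thioredoxins, glutathione and metal supply, 0 to 5 for regulators, 0 to 11 for Yap1, 0 to 3 for haem synthesis, 0 to 6 for haem and oxygen, 0 to 10 for the peroxisome and 0 to 7 for NADPH.

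Each ratio sets exposed cells against earlier cells on the same array, so the test against 0 is itself a paired one. With 1 group of ratios no further replicate block was fitted.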
